A study of Mus musculus with 4 samples.

Results

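Oxysterols are cholesterol molecules that carry an added hydroxyl group, and cells use them as a signal of sterol load. Ch25h makes 25-hydroxycholesterol, and oxysterols bind the liver X receptors (LXRs), nuclear receptors encoded by Nr1h3 (LXR alpha) and Nr1h2 (LXR beta), which act as dimers with retinoid X receptors. Bound LXRs raise the transcription of genes that move cholesterol out of the cell, while oxysterols also act on Insig proteins to hold back sterol synthesis. In the brain, whose cholesterol is made locally and lies largely in myelin, glia pass sterol between cells on particles that contain Apoe.

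The 10 genes described here are Ch25h, the receptor genes Nr1h2 and Nr1h3, the exporters Abca1 and Abcg1, the lipoprotein genes Apoe and Pltp, the phospholipid enzyme Lpcat3, the ubiquitin ligase Mylip and the lysosomal transporter Npc1. They were matched by symbol among 53465 listed genes, and all 10 passed the filter on low counts that left 15766 genes. They were chosen on their place in the pathway, with the fold changes of the comparison below already known. Their differences between genotypes are therefore given as a description, without their p-values, and nothing is read from the calls listed for them.

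RNA-Seq was performed on primary oligodendroglial cell (1° OGC) cultures from mouse forebrain, taken at 2 to 4 days of age, after shake-off, microglial depletion and 3 days of differentiation (3ddiff). The mice had a mixed background of C3H and C57Bl/6J. Ctrl mice were Zfp276 flox/flox and Zfp276cko mice were Sox10::Cre tg; Zfp276 flox/flox, so that both genotypes carried the floxed allele and only Zfp276cko mice carried the Cre transgene, which is driven by Sox10 in the oligodendroglial lineage. For cultures, a Rosa26 stopflox tdTomato reporter had also been crossed in. Each genotype had 2 independent preparations from 3 mice each, which limits any p-value to the spread of 2 preparations, and an exact permutation test of 2 against 2 cannot go below a two-sided p of 0.333. In such bulk RNA, a smaller number of cells of a type and less RNA per cell cannot be told apart.

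The libraries held between 21068322 and 26599809 counted reads. Zfp276, the gene removed, was counted 1388 and 1982 times in the ctrl libraries against 541 and 585 times in the Zfp276cko libraries, a log2 fold change of −1.97 ± 0.18 (SE, n = 2 per genotype). Its counts include reads from exons outside the deleted stretch. The paper relates the remaining transcript to an incomplete deletion, which it also found by staining of spinal cord. The ctrl preparations stood further apart than the Zfp276cko preparations, with 12.7% of 14324 genes differing at least 2-fold between ctrl replicates against 0.307% between Zfp276cko replicates, whose counts still differed by more than sampling noise (mean chi-square of 5.63 per gene). In ctrl replicate 1 the collagen gene Col1a2 had a normalized count of 2703, against 41.2 to 49.8 in the other 3 libraries. Csf1r, a receptor of microglia, had 11409 in that library against 1850 to 3085 in the others. Microglia genes did not all go this way, as Aif1 had 1248 in that library against 2770 to 3204 in the others. The neuronal gene Snap25 had 35.6 in the same library against 299 to 484 in the others.

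Counts were normalized by scaling every library to the same effective size, the mean of the 4, and all log2 fold changes are Zfp276cko against ctrl from a fit across all 15766 genes. Values given per library are normalized counts unless another scale is named. Genes were called where the adjusted p did not exceed 0.05, the log2 fold change was 0.6 or more in size, and the mean over libraries reached 20 normalized counts.

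To show what lies before the start of genes with a higher level in Zfp276cko cultures, the upstream sequences of Abca1 and Ch25h are given from RefSeq promoters on GRCm38.p6, from the far end to the last base before the start site in RefSeq. The Abca1 sequence covers chr4:53159896-53160002 and the Ch25h sequence chr19:34475149-34475248, both on the minus strand. The Ch25h position given below is from GENCODE and reaches 34475164, so the last printed bases of Ch25h lie within that gene model. Capitals in Abca1 mark the best match to a DR4, the motif on which LXR dimers bind, and capitals in Ch25h mark TGACGTCA, which is the consensus of the cAMP response element. Both marks were chosen after the sequences were seen.
Abca1: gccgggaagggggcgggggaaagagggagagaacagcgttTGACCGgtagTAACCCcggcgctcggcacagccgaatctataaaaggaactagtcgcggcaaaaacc
Ch25h: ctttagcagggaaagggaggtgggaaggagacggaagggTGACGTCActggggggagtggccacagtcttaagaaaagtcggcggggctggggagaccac
The DR4 was searched as AGGTCA, 4 bases of any kind and AGGTCA, on either strand. Of the 10 genes, 8 matched the promoter table, with 11 promoters of 300 bases. With at most 1 mismatch in each repeat, none of the 11 held a match, against 1.75% of all 32851 promoters. The marked Abca1 match lies on the opposite strand and has 3 mismatches, and 21.9% of all promoters hold a match with 3 or fewer. The best matches in the other member promoters had 4 or 5 mismatches, and 76.9% of all promoters hold a match with 4 or fewer. A pair of GAAA separated by 2 bases, a core shared by interferon response elements, was in none of the 11 against 3.44% of all. TGACGTCA, which reads the same on both strands, was in the Ch25h promoter and in 1.79% of all promoters. These are matches of letters within 300 bases. They say nothing for or against binding, also where a sequence departs from AGGTCA.

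Ch25h encodes cholesterol 25-hydroxylase, an enzyme that is also known as an interferon-inducible gene. It is a gene of 1 exon on chr19:34473778-34475164 (mm10, minus strand). Its normalized counts were 296 and 414 in ctrl libraries and 1457 and 1329 in Zfp276cko libraries. The genotypes did not overlap, and the lower Zfp276cko value was 3.21-fold the higher ctrl value. The means were 355 ± 83.8 in ctrl and 1393 ± 90.3 in Zfp276cko (SD, n = 2 each), a 3.93-fold difference and a log2 fold change of 1.97 ± 0.20 (SE). Leaving out either ctrl library gave 1.75 or 2.22. Ch25h shares 159 bp of exon with Gm26902 on the opposite strand, whose normalized counts were 22.6 and 5.63 in ctrl libraries and 26.2 and 31.8 in Zfp276cko libraries.

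The LXR genes differed from each other. Nr1h2 (chr7:44549616-44553951, minus strand), the receptor found in most tissues, had 1192 and 1144 in ctrl and 1306 and 1166 in Zfp276cko libraries. The groups overlapped, with a log2 fold change of 0.08 ± 0.10 (SE). Nr1h3 (chr2:91184061-91202834, minus strand), the form best known from liver and macrophages, had 70.0 and 484 in ctrl and 744 and 676 in Zfp276cko libraries. Both Zfp276cko values were higher than both ctrl values, but the ctrl replicates themselves lay 6.91-fold apart. Its log2 fold change was 1.36 ± 0.89 (SE), but 0.55 if ctrl replicate 1 was left out and 3.32 if ctrl replicate 2 was. Nr1h3 shares 34 bp of exon with Gm13783 on the same strand.

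Both cholesterol exporters had higher counts in Zfp276cko cultures. Abca1 (chr4:53030787-53159895, minus strand) passes cholesterol and phospholipid to lipid-poor apolipoproteins at the cell surface. Its normalized counts were 4990 and 6533 in ctrl libraries and 13138 and 13190 in Zfp276cko libraries. The ranges did not overlap, and the means of 5762 ± 1091 and 13164 ± 37.4 (SD, n = 2 each) differed 2.28-fold, a log2 fold change of 1.19 ± 0.17 (SE). Without ctrl replicate 1 it was 1.01 and without ctrl replicate 2 it was 1.39. Abcg1 (chr17:31057675-31117988, plus strand) exports sterol to particles that already carry lipid. It had 1705 and 3910 in ctrl and 6547 and 6633 in Zfp276cko libraries. The groups again did not overlap, but ctrl replicate 1 was the lowest by a wide margin. The log2 fold change of 1.23 ± 0.42 (SE) became 0.75 without ctrl replicate 1 and 1.94 without ctrl replicate 2.

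**Figure D1:**
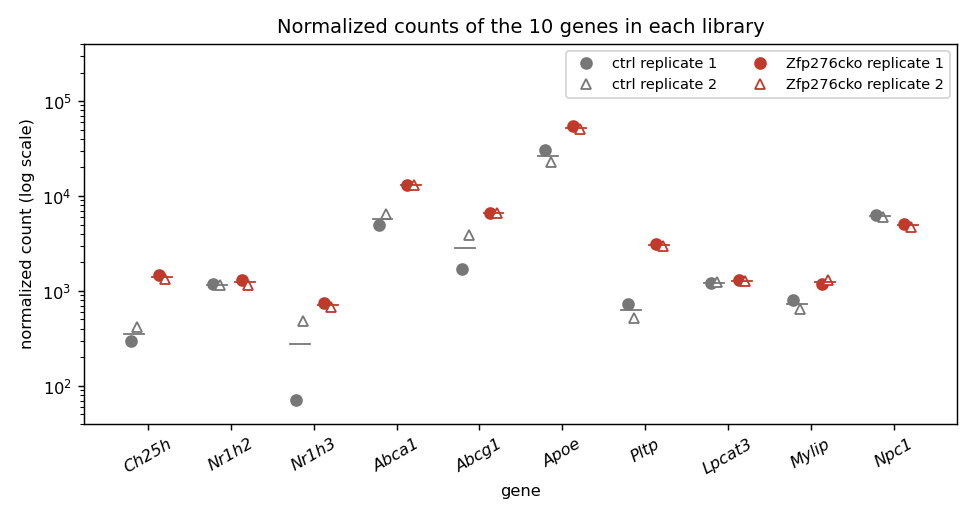
Normalized counts (log scale) of the 10 genes in each of the 4 libraries, with a horizontal line at the mean of each genotype (n = 2 preparations). The Zfp276cko points of each gene lie close together, while the ctrl points of Nr1h3 and Abcg1 lie far apart, and Nr1h2 is the gene whose groups overlap.

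Both lipoprotein genes had higher counts in Zfp276cko cultures. Pltp (chr2:164839518-164857711, minus strand) encodes a protein that transfers phospholipid between lipoprotein particles. Its normalized counts were 729 and 518 in ctrl libraries and 3142 and 2945 in Zfp276cko libraries. The genotypes did not overlap, and the means of 623 ± 149 and 3043 ± 139 (SD, n = 2 each) differed 4.88-fold, a log2 fold change of 2.29 ± 0.20 (SE). Leaving out ctrl replicate 1 gave 2.56, and leaving out ctrl replicate 2 gave 2.05. Pltp shares 495 bp of exon with Ctsa on the opposite strand, a lysosomal protease gene with 9206 and 6651 in ctrl and 9502 and 9016 in Zfp276cko libraries. Ctsa itself had a log2 fold change of 0.22 ± 0.19 (SE, edgeR adjusted p = 0.621).

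Apoe (chr7:19696109-19699188, minus strand), the main apolipoprotein of brain lipoproteins, is made mostly by astrocytes and microglia. It had 30593 and 22682 in ctrl and 54490 and 50557 in Zfp276cko libraries. All Zfp276cko values exceeded all ctrl values, and the means of 26637 ± 5594 and 52523 ± 2781 (SD, n = 2 each) differed 1.97-fold. The log2 fold change was 0.98 ± 0.20 (SE), 1.21 without ctrl replicate 1 and 0.77 without ctrl replicate 2.

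Lpcat3 and Mylip are LXR targets with other tasks. Lpcat3 (chr6:124663027-124704418, plus strand) places polyunsaturated chains into phospholipids. It had 1218 and 1228 in ctrl and 1299 and 1269 in Zfp276cko libraries. Its groups did not overlap, but the difference of 1.05-fold (log2 fold change 0.07 ± 0.08, SE) was smaller than its standard error. It shares 334 bp of exon with Emg1 on the opposite strand. Mylip (chr13:45389742-45412022, plus strand), also called Idol, marks lipoprotein receptors for breakdown. It had 799 and 653 in ctrl and 1181 and 1308 in Zfp276cko libraries, with no overlap and a log2 fold change of 0.78 ± 0.15 (SE). Leaving out ctrl replicate 1 gave 0.93 and leaving out ctrl replicate 2 gave 0.63.

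Npc1 was the 1 gene of the 10 with lower counts in Zfp276cko cultures. It releases cholesterol from lysosomes, and lies on chromosome 18 from 12189692 to 12236400 (mm10, minus strand). Its normalized counts were 6294 and 6020 in ctrl libraries and 5085 and 4772 in Zfp276cko libraries. The groups did not overlap, and the means of 6157 ± 193 and 4929 ± 222 (SD, n = 2 each) gave a log2 fold change of −0.32 ± 0.10 (SE). Its partner in the lysosome, Npc2, had 8058 and 4638 in ctrl and 7320 and 7439 in Zfp276cko libraries, so that its groups overlapped. For Npc2 the log2 fold change was 0.22 (adjusted p = 0.764), with 0.67 without ctrl replicate 1 and −0.14 without ctrl replicate 2. Npc1 shares 601 bp of exon with Rmc1 and Gm15956 on the opposite strand.

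Of the 10 genes, 8 were without overlap on the higher side in Zfp276cko and 1 on the lower side, against 26.8% and 23.7% of the 15766 tested genes. The edgeR quasi-likelihood test called none of the 10, as it called 0% of all genes. Zfp276, the gene removed, was itself not called (edgeR adjusted p = 0.0962), though DESeq2 called it lower (adjusted p = 1.2e-14). An edgeR count of 0 is therefore no sign that genes were unchanged, here or in the lists below. The lowest adjusted p over all genes was 0.0725, and an unadjusted p of 0.05 in place of the adjusted one called 476 genes lower and 806 higher, 6 of the 10 among them. DESeq2 called 2.92% of 15289 genes higher and 2.21% lower, and called Ch25h, Abca1, Abcg1, Mylip, Apoe and Pltp higher and none lower. The median log2 fold change was 1.09 over the 10 genes and −0.00125 over all tested genes. For the 10 genes it was 0.84 without ctrl replicate 1. Since the choice of the genes used this comparison, nothing is read from these counts and medians.

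**Figure D2:**
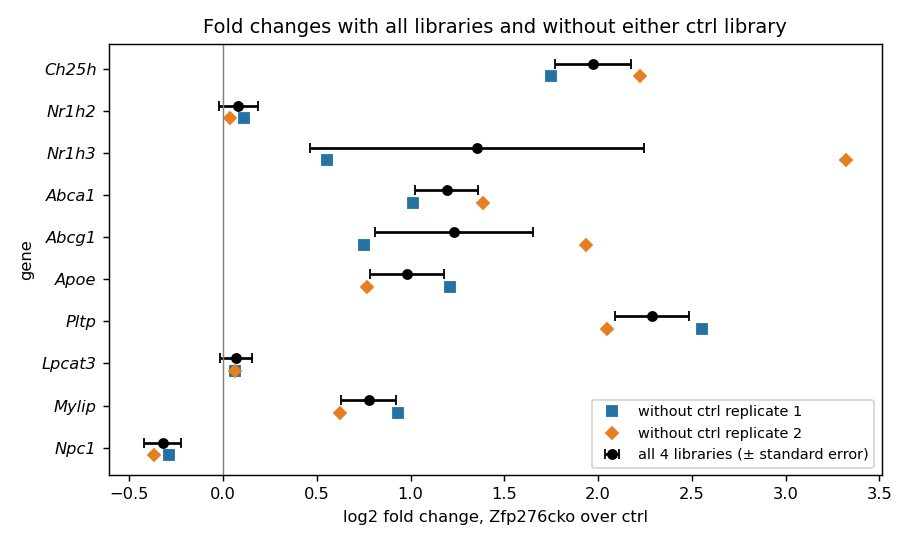
Log2 fold change (Zfp276cko against ctrl) of each of the 10 genes with its standard error. Values run from −0.32 for Npc1 to 2.29 for Pltp, and Nr1h3 has the widest error bar at 0.89.

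The replicates of the 10 genes differed by genotype in their spread. Between the ctrl preparations the larger value was a median of 1.33 times the smaller and at most 6.91 times. Between the Zfp276cko preparations the median was 1.07 times and the largest ratio 1.12. The direction of the ctrl difference was mixed, with ctrl replicate 1 the higher of the pair for 5 genes.

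Levels of different genes were compared in CPM (counts scaled to the effective library size) per kilobase of exon. Apoe stood apart at 527 in ctrl and 1038 in Zfp276cko, above the other members in every library. In ctrl the order went on with Abca1 at 23.5, Npc1 at 23.0, Abcg1 at 16.3 and Lpcat3 at 15.8, neighbours whose libraries overlapped. Nr1h2 followed at 14.7, then Ch25h at 10.8, Pltp at 10.3 and Mylip at 9.49, of which these last 3 overlapped in turn, and Nr1h3 was lowest at 4.65. Overlap is given here between neighbours in the order only. Abcg1 spanned 9.87 to 22.6 in ctrl, and in ctrl replicate 1 it lay below Lpcat3, Nr1h2, Pltp and Mylip. In Zfp276cko the order after Apoe was Abca1 at 53.7, Pltp at 50.2, Ch25h at 42.4 and Abcg1 at 38.2, none overlapping the next. Npc1 followed at 18.4, then Lpcat3 at 16.6, Mylip at 16.3 and Nr1h2 at 15.6, with Lpcat3 overlapping Mylip and Mylip overlapping Nr1h2, and Nr1h3 was again lowest at 11.9. Pltp and Ch25h thus stood below Npc1, Lpcat3 and Nr1h2 in ctrl and above all 3 in Zfp276cko.

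**Figure D3:**
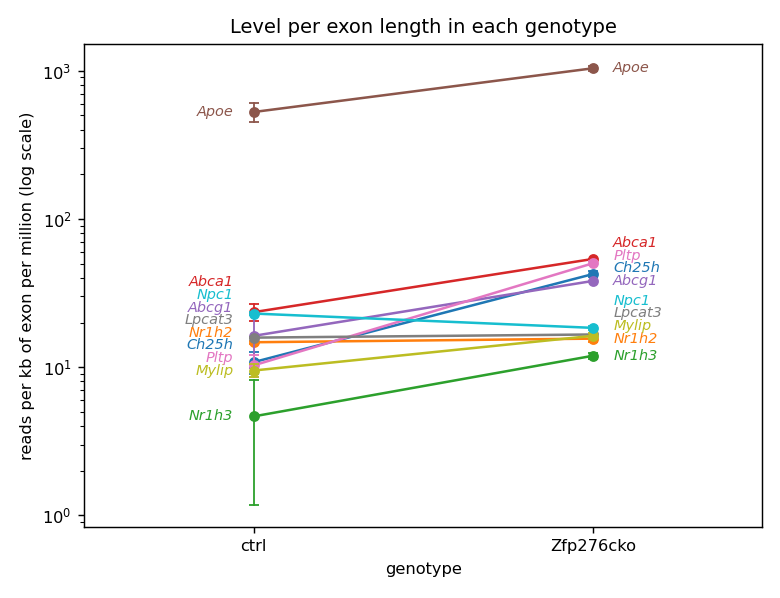
CPM per kilobase of exon (log scale) of the 10 genes in ctrl and in Zfp276cko cultures, with lines joining the means of a gene and bars spanning its 2 libraries. Apoe lies above all other genes in both genotypes, and Pltp and Ch25h cross Npc1, Lpcat3 and Nr1h2.

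The rest of the pathway was read from lists of genes by function, themselves drawn up with earlier results of these data known, so that their adjusted p-values are no independent evidence. In each list the genes without overlap are to be read against the 26.8% of all tested genes above and the 23.7% below both ctrl values. Of the 7 tested enzymes that make, convert or sulphate oxysterols, edgeR called 0. In both Zfp276cko libraries 3 of the 7 lay above and 1 below both ctrl values, and the median log2 fold change was 0.26. Cyp46a1, which makes 24-hydroxycholesterol in neurons, was the lower of them, with 383 and 361 in ctrl and 213 and 216 in Zfp276cko libraries. The log2 fold change was −0.80 ± 0.15 (SE, adjusted p = 0.165), and DESeq2 called it lower. Cyp7b1, which hydroxylates 25-hydroxycholesterol further, had 21.4 and 59.6 in ctrl and 64.2 and 68.7 in Zfp276cko libraries. Only ctrl replicate 1 was low, and the log2 fold change of Cyp7b1, 0.71 (adjusted p = 0.586), came to 0.16 without that library and 1.62 without ctrl replicate 2. Cyp39a1 had a log2 fold change of 0.53. Cyp27a1, the mitochondrial 27-hydroxylase, had 73.6 and 7.88 in ctrl and 50.7 and 42.1 in Zfp276cko libraries, with overlap. The log2 fold change, 0.19, turned into 2.54 when ctrl replicate 1 was left out and into −0.68 when ctrl replicate 2 was. Hsd3b7, an enzyme of oxysterol breakdown, was at low counts of 11.9 and 15.8 in ctrl and 19.9 and 23.2 in Zfp276cko libraries. The groups did not overlap, with a log2 fold change of 0.64 (adjusted p = 0.474).

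Among 13 other proteins that bind oxysterols, edgeR called 0, 2 lay above and 7 below (26.8% and 23.7% over all genes), and the median log2 fold change was −0.12. Insig1, which holds SREBP in the endoplasmic reticulum, had 3378 and 2475 in ctrl and 1213 and 1246 in Zfp276cko libraries. Its log2 fold change was −1.25 ± 0.18 (SE, adjusted p = 0.123), and DESeq2 called it lower. Gpr183, the cell surface receptor for oxysterols derived from the Ch25h product, was at low counts of 24.9 and 22.5 in ctrl and 5.43 and 6.01 in Zfp276cko libraries. This was a log2 fold change of −2.03 ± 0.37 (SE, adjusted p = 0.162), with a mean under 20. Osbpl8, Osbp and Osbpl10, of the oxysterol-binding protein family, had log2 fold changes of 0.36, −0.30 and −0.29. Osbpl8 came to 0.57 with ctrl replicate 1 left out and 0.18 with ctrl replicate 2 left out, and Osbpl10 to −0.18 with Zfp276cko replicate 2 left out.

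Of 14 partners, corepressors and coactivators of LXR, edgeR and DESeq2 called 0, and 5 lay above and 5 below (26.8% and 23.7% over all genes), with a median log2 fold change of −0.03. At an unadjusted edgeR p of 0.05 with the same limits, 11 genes of all the pathway lists together were called. These lists held 7, 13, 14, 16 and 28 tested genes. Over all 15766 tested genes the same rule called 476 lower and 806 higher. The retinoid X receptors Rxra and Rxrb had log2 fold changes of 0.49 (adjusted p = 0.191) and 0.006, and the sign of the latter turned when ctrl replicate 1 (−0.05) or Zfp276cko replicate 1 (−0.08) was left out. Rxrg, at 9.50 and 13.5 in ctrl and 21.7 and 32.6 in Zfp276cko libraries, had a log2 fold change of 1.23 (adjusted p = 0.301) with a mean under 20.

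Among 16 tested of 21 other LXR targets, edgeR called 0, 6 lay above and 6 below (26.8% and 23.7% over all genes), and the median log2 fold change was −0.07. Apoc1, which lies 3448 bp from Apoe, had 103 and 92.3 in ctrl and 350 and 441 in Zfp276cko libraries. Its log2 fold change was 2.01 ± 0.21 (SE, adjusted p = 0.103), and it was the 1 gene of the list called by DESeq2. Srebf1, the transcription factor of fatty acid synthesis and a textbook LXR target, had 844 and 1515 in ctrl and 2063 and 1927 in Zfp276cko libraries. The log2 fold change was 0.76 (adjusted p = 0.347), and 0.40 without ctrl replicate 1 and 1.23 without ctrl replicate 2. Smpdl3a, a phosphodiesterase, had a log2 fold change of 1.17 (adjusted p = 0.304), 1.87 without ctrl replicate 1 and 0.69 without ctrl replicate 2. Scd1, a desaturase, had a log2 fold change of −1.30 (adjusted p = 0.483) and changed sign to 0.24 without ctrl replicate 1, against −2.04 without ctrl replicate 2.

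Of 28 genes of sterol efflux, esterification and transport, edgeR called 0, 10 lay above and 7 below (26.8% and 23.7% over all genes), and the median log2 fold change was 0.16. Vldlr and Lrp8, lipoprotein receptors that the Mylip protein is known to target, were on the lower side. Mylip acts on receptor protein, which these RNA values do not measure, and a link was not tested. Vldlr had a log2 fold change of −0.66 (adjusted p = 0.150), and Lrp8 had one of −0.52 (adjusted p = 0.172). Vldlr and Stard4 were among the genes that DESeq2 called lower, and Stard5 and the apolipoprotein gene Clu were called higher. Stard4, a sterol carrier, had a log2 fold change of −1.64 (adjusted p = 0.200) and −0.995 or −2.10 with ctrl replicate 1 or 2 left out. Stard5, a related carrier, had 482 and 451 in ctrl and 867 and 911 in Zfp276cko libraries, a log2 fold change of 0.93 ± 0.12 (SE, adjusted p = 0.120). Abca8a, a transporter, had a log2 fold change of 1.09 (adjusted p = 0.464), with 0.49 without ctrl replicate 1 and 2.14 without ctrl replicate 2.

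Interferon response genes had higher counts in Zfp276cko cultures. Their list was also drawn up with earlier results of these data known, so the shares given here are no independent evidence. All 20 on the list were without overlap on that side, against 26.8% of all tested genes, DESeq2 called 15 of them higher against 2.92% of all genes, edgeR called 0, and the median log2 fold change was 3.09. Rsad2, an antiviral enzyme, had a log2 fold change of 5.28 ± 0.19 (SE, adjusted p = 0.0725), Ifit3 had 4.98, Isg15 had 4.69 and Ifit1 had 4.57. The values of Ifit3 and Ifit1 were 6.12 and 5.68 with ctrl replicate 1 left out, and 4.34 and 3.93 with ctrl replicate 2 left out. The summed level of the list was 641 and 292 CPM in ctrl and 4207 and 4118 in Zfp276cko libraries. Its part in the Ch25h values was not tested.

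Markers of the cell types in the cultures were set beside these values, since Apoe, Abca1 and Abcg1 are also used by microglia and astrocytes. The marker lists, too, were drawn up with earlier results of these data known. The summed level of the 20 microglia markers was 4436 and 2765 CPM in ctrl and 3424 and 3492 in Zfp276cko libraries, so the groups overlapped, and of 19 tested markers 5 lay above and 1 below (26.8% and 23.7% over all genes). Siglech was at 0 in all libraries. Of the 19, DESeq2 called 2 higher, Cd68 and Ptprc, and 1 lower, Fcrls, against 2.92% and 2.21% of all genes. Within the list Cd68 had a log2 fold change of 0.99 (adjusted p = 0.241) and Fcrls one of −1.22 (adjusted p = 0.148). Ptprc had 3018 and 3101 in ctrl and 5092 and 5264 in Zfp276cko libraries. Its log2 fold change was 0.76 (edgeR adjusted p = 0.117), 0.74 without ctrl replicate 1 and 0.77 without ctrl replicate 2. Cd68 came to 1.42 when ctrl replicate 1 was left out and 0.64 when ctrl replicate 2 was. Csf1r and Trem2 were highest in ctrl replicate 1, while Aif1 was lowest there. The 12 astrocyte markers summed to 2095 and 2029 in ctrl and 1955 and 1855 in Zfp276cko libraries, with 2 of 11 tested above, 2 below and Gjb6 at 0. On the higher side, Aldh1l1 had a log2 fold change of 0.88 (adjusted p = 0.351) and Fgfr3 one of 0.86 (adjusted p = 0.534). On the lower side, Aldoc had −0.50 (adjusted p = 0.434) and S100b had −0.49 (adjusted p = 0.405). All 4 depended on a ctrl library. With ctrl replicate 1 left out Aldh1l1 had 0.47, Fgfr3 1.94, Aldoc −0.13 and S100b −0.75, and with ctrl replicate 2 left out these log2 fold changes were 1.43, 0.23, −0.80 and −0.17. Neuron markers summed to 699 and 1113 in ctrl and 699 and 764 in Zfp276cko libraries, with 1 of 9 tested below and Stmn2 at 26.1 in ctrl replicate 1 against 302 to 390 in the others.

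Fibroblast and vessel markers summed to 345 in ctrl replicate 1 and 12.1 to 17.5 CPM in the other 3 libraries, with Cldn5 at 0 and 1 of 8 tested markers above and 0 below. Oligodendroglial markers were lower in Zfp276cko, summing to 15755 and 20484 in ctrl and 10808 and 11011 in Zfp276cko, with 10 of 12 below against 23.7% of all genes. DESeq2 called 9 of the 12 lower, against 2.21% of all genes. The myelin gene Mog had a log2 fold change of −0.92 (adjusted p = 0.103). Precursor markers summed to 9230 and 6385 in ctrl and 4883 and 4817 in Zfp276cko, with 6 of 8 below against 23.7% of all genes. Gpr17 had a log2 fold change of −1.12 (adjusted p = 0.207) and C1ql1 −1.86 (adjusted p = 0.206). When ctrl replicate 1 was left out these were −0.72 and −1.12, and when ctrl replicate 2 was left out −1.44 and −2.36. The part of these shifts in the sterol genes was not tested.

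**Figure D4:**
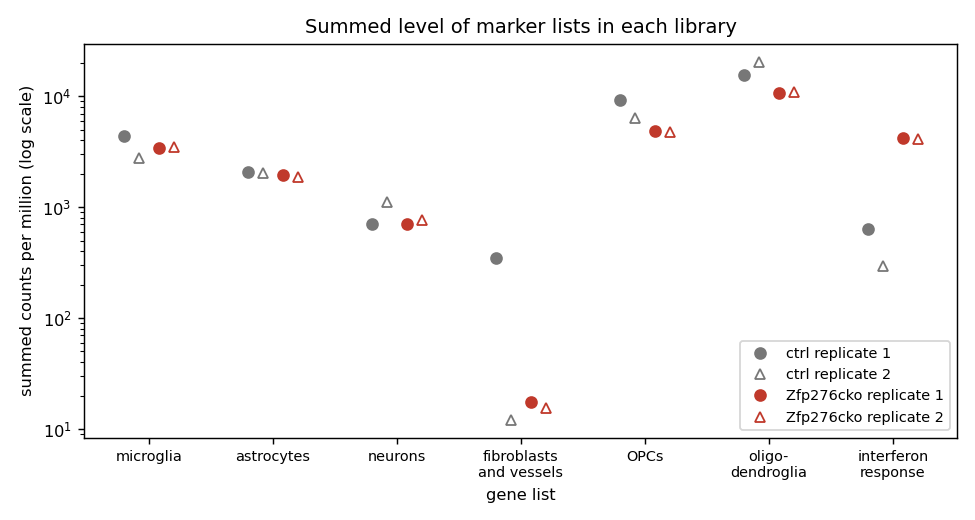
Summed CPM (log scale) of the genes of each marker list and of the interferon response list in each library. The fibroblast and vessel sum of ctrl replicate 1 stands above the other 3 libraries, and the interferon sum of both Zfp276cko libraries stands above both ctrl libraries.

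The genes whose pattern over the 4 libraries was most like that of a member were found by the Euclidean distance of centred log2 CPM, over the 14314 genes that reached the limit on the mean. Closest to Ch25h were Tgm2 (distance 0.0846), Il18bp (0.129) and Col2a1 (0.144). Closest to Abca1 were Snai2 (0.0565), Echdc2 (0.0874) and Eya4 (0.0908). Closest to Apoe were Batf (0.0705), Id1 (0.072) and Mitd1 (0.0774). With 4 libraries in 2 groups such likeness is a description of these libraries.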

How the data were processed

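The authors deposited raw counts for each gene symbol, as whole numbers, for 2 ctrl and 2 Zfp276cko libraries made with a stranded mRNA kit. Reads had been mapped to mm10 with STAR 2.5.4a. The study's methods name HTSeq for counting and the submitters' processing notes name featureCounts 1.5.1, and the strand setting is not given in the sources used here, so reads of genes that overlap on opposite strands may not be separated.

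From these counts, libraries were filtered with filterByExpr, scaled with TMM and compared with edgeR 4.0.16 (limma 3.58.1, R 4.3.3) by the quasi-likelihood test with Benjamini-Hochberg adjustment over 15766 genes. DESeq2 1.42.0, other scaling, other filters, a replicate block, other thresholds and leaving out each library were alternatives. Groups came from the labels. Of the listed genes, 220 entries share a symbol and were kept apart. Counts of 3 or fewer in all libraries were treated as at the floor. The floor covers counting error only, while SDs and SEs include the spread between preparations. The scripts were tested on simulated data.

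Gene positions and exon lengths were taken from GENCODE M21 (98.2% of tested genes matched a length) and promoters from RefSeq. Named are the 10 genes, Zfp276, Cyp7b1, Hsd3b7, Cyp27a1, Cyp46a1, Gpr183, Srebf1, Npc2, the retinoid X receptors, Vldlr, Lrp8, at most 4 genes of each list by absolute log2 fold change with a mean of at least 20, and the 3 genes closest to Ch25h, Abca1 and Apoe. Snap25, Csf1r, Aif1 and overlapping genes were named for the libraries or exons they describe, and Ptprc as a marker that DESeq2 called. A few genes within the rule are left unreported. The 10 genes and the lists were chosen with earlier results of these data known.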

Additional observations from a re-analysis of the deposited data

How the results depend on the processing

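The edgeR test called 0 genes, and its count depended on the setting. DESeq2 called 338 genes lower and 447 higher, 6 of the 10 sterol genes and 8 genes of the pathway lists. The pathway lists held 7, 13, 14, 16 and 28 tested genes. Over all genes the DESeq2 calls came to 2.21% lower and 2.92% higher. An unadjusted p called 476 lower and 806 higher, 6 of the 10 and 11 list genes. Dropping the filter gave 8 genes as higher. Leaving out each library in turn called 0 to 1286 genes lower and 0 to 1792 higher, 0 to 7 of the 10 and 0 to 25 list genes. Without ctrl replicate 1 these were 952, 1689, 6 and 19, and without ctrl replicate 2 they were 1286, 1792, 7 and 25, while leaving out either Zfp276cko library called 0. In these fits the spread came only from the genotype that kept both libraries, and the lone library was assumed to vary like them. That pair was Zfp276cko when a ctrl library was left out, with 0.307% of genes at least 2-fold apart. It was ctrl when a Zfp276cko library was left out, with 12.7% of genes that far apart. Nothing about the genotypes is read from these calls. With the replicate block 0 genes were called, and same-numbered libraries did not deviate together (r = 0.0067 over 14324 genes), so the numbers were not used as pairs.

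The log2 fold changes of the 10 genes kept their sign in all 90 combinations of gene and setting. Where the groups did not overlap, leaving out a library could hardly turn the sign, so this is no test of robustness. Of the 90, 84 moved by less than the replicate spread and 6 by more. That spread was wide for Nr1h3, whose move from 1.36 to 0.55 without ctrl replicate 1 lay within it. The 6 were Nr1h3 and Abcg1 without ctrl replicate 2, Apoe and Pltp without ctrl replicate 1, and Lpcat3 without a filter and without Zfp276cko replicate 2, both at 0.09. With the size factors of DESeq2 the median over all genes moved by −0.0144. Depth did not limit the 10 genes, whose counts were far above the floor of 3, whereas 2 preparations per genotype limit every comparison.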
